A study of Mus musculus with 4 samples.

Results

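The miRNA hairpins described here are Mir144, Mir451a, Mir3107, Mir150, Mir143 and Mir122, which are typical of red cells, lymphocytes, mesenchyme and liver and not of macrophages. They are 6 of the 2022 hairpins that the GENCODE M21 annotation (GRCm38) types as miRNA among the 141239 features of the table, and each matched 1 row by its symbol. They were selected on their vesicle-to-cell ratios in these same libraries, together with the tissues they are known from, so the vesicle-to-cell values below describe the choice and are given without a test.

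The libraries came from RAW264.7, a mouse macrophage-like line, and from the extracellular vesicles (EV) it released. All cells carried a short hairpin RNA, either non-silencing (shNS) or directed against the exonuclease gene Dis3l2 (shDis3l2), and all received doxycycline at 1 µg per mL for 3 days and during the 24 h in which vesicles collected in the medium. Compartment and label give 4 groups of 1 library each: whole cells labelled shNS, whole cells labelled shDis3l2, vesicles labelled shNS and vesicles labelled shDis3l2. The cells grew with 10% fetal bovine serum, replaced at the same share for the collection by serum spun to deplete its vesicles. What remained in that serum was not measured here. Medium of many flasks was pooled for vesicles, and these were purified by flotation in sucrose and digested with micrococcal nuclease. The sources used here do not say whether the lines are single clones.

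Depth was 17612856 to 19741041 estimated counts per library, of which 1854287 to 13480443 lay on miRNA hairpins, or 61.2% to 68.3% of counts in cells and 10.5% to 19.1% in vesicles. Counts on Dis3l2 were 41 in cells labelled shNS and 13232 in cells labelled shDis3l2, with 1713 and 1894 in the vesicle libraries. These are small RNA libraries, so such counts do not measure Dis3l2 mRNA or its knockdown. Whether they include reads of the short hairpin RNA itself was not tested. Libraries are named by their labels only. With 1 library per group no difference has a replicate check. Intervals are exact 95% intervals and cover counting error only, as does the limit set by a count of 0, which is 3 counts, or 0.223 and 0.266 CPM (counts per 1000000 miRNA counts) in cells and 0.863 and 1.62 CPM in vesicles.

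A miRNA is cut from a hairpin precursor and loaded as a short single strand into an Argonaute protein, where bases 2 to 8, the seed, pair with target mRNAs. miR-144 and miR-451a are made from a single primary transcript that GATA1 switches on in red cell precursors, and miR-451a is the known exception to Dicer cleavage, since Argonaute 2 itself cuts its short hairpin. miR-486, to which Mir3107 belongs, is abundant in red cells and muscle, miR-150 in mature lymphocytes, miR-143 in smooth muscle and fibroblasts, and miR-122 in hepatocytes. All of them circulate in blood plasma and serum, within vesicles and also bound to Argonaute or lipoproteins.

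The 2 hairpins of the red cell transcript are shown first because they stand on neighbouring sites and are processed differently. Mir144 and Mir451a lie on the plus strand of chromosome 11, at chr11:78073005-78073070 and chr11:78073170-78073241 (GRCm38), with 99 nt between them, outside other genes apart from Mir451b on the minus strand of the same site as Mir451a. Both sequences are from RefSeq (GRCm38.p6), 5′ to 3′, with the mature strands in capitals.
Mir144 hairpin: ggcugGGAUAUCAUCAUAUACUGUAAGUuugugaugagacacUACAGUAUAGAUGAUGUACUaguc
Mir451a hairpin: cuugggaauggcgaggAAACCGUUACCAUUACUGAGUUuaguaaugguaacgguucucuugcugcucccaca
In the Mir451a hairpin of 72 nt the mature strand runs from base 17 to base 38, across the loop, whereas the Mir144 hairpin of 66 nt gives a strand from each arm.

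The mature strands that RefSeq gave for 3 of the 6 hairpins follow, with the seed in capitals, to show that none is shared among them.
miR-144-5p: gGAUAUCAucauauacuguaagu
miR-144-3p: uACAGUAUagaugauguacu
miR-451a: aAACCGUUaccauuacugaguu
miR-150-3p: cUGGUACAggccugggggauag
No other hairpin of the RefSeq table had any of these 4 seeds. The counts of a hairpin hold both arms, so a value cannot be assigned to one of these strands. The 5p strand of Mir150 and the strands of Mir3107, Mir143 and Mir122 were not available here, so their seeds were not compared.

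Mir3107 lies on chromosome 8 from 23142573 to 23142662, on the minus strand within an intron of the erythrocyte ankyrin gene Ank1, opposite Mir486. These hairpins share 22 nt on the same strand, so reads can be divided between them. Mir486 had 3 counts in the vesicle library labelled shNS and 0 in the other libraries. Mir150 lies on chromosome 7 from 45121757 to 45121821, Mir143 on chromosome 18 from 61649196 to 61649258, and Mir122 on chromosome 18 from 65248861 to 65248926, where it overlaps an exon of AC157910.3, a noncoding RNA. Apart from that RNA and Mir486, no feature of the table with a named transcript shared 18 nt or more with any of the 6 hairpins on the same strand.

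Red cell miRNAs were near the limit of detection in cells and readily measured in vesicles. Cells labelled shNS had 5 counts of Mir144 and those labelled shDis3l2 had 0, whereas the vesicle libraries had 477 (shNS) and 266 (shDis3l2). On the CPM scale those levels were 0.371, 0, 137 and 143. Both vesicle libraries thus lay far above both cell libraries, and the level in vesicles was nearly the same with either label.

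Its neighbour Mir451a had 4 and 3 counts in cells against 376 and 157 in vesicles, with shNS first here and in what follows. The levels were 0.297 and 0.266 CPM in cells and 108 and 84.7 CPM in vesicles. For the cells labelled shNS the lower bounds of the 95% intervals were 0.120 CPM for Mir144 and 0.0808 CPM for Mir451a, so these counts are close to the detection limit.

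Mir3107 had 6 and 19 counts in cells against 278 and 238 in vesicles. Its levels were 0.445 and 1.69 CPM in cells and 79.9 and 128 CPM in vesicles. The vesicle libraries again lay above both cell libraries.

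Mir150, which restrains the factor c-Myb in lymphocytes, was the most abundant of the 6 in vesicles. It had 17 and 32 counts in cells and 1233 and 1449 in vesicles, or 1.26 and 2.84 CPM against 355 and 781 CPM. Among all hairpins it ranked 283 and 223 in the cell libraries and 98 and 86 in the vesicle libraries.

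Mir143 had 6 and 5 counts in cells and 277 and 264 in vesicles, or 0.445 and 0.444 CPM against 79.7 and 142 CPM. Mir145a, which is transcribed with it from a site 1301 nt away and marks the same smooth muscle cells, had 0 counts in 3 libraries and 3 in the vesicle library labelled shDis3l2.

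Mir122, the main miRNA of hepatocytes, differed from the others in that cells held it too. Its counts were 132 and 148 in cells, 125 and 163 in vesicles. As a share of miRNA counts this was 9.79 and 13.1 CPM in cells and 35.9 and 87.9 CPM in vesicles. In cells it exceeded each of the other 5, whereas in vesicles labelled shNS it was below each of them.

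**Figure D1:**
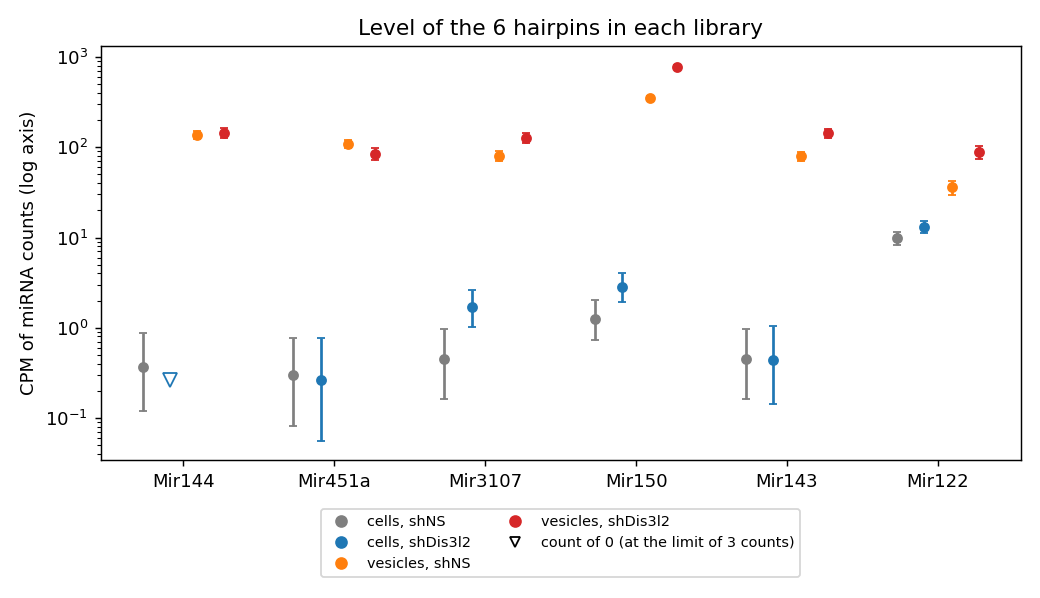
Level of each hairpin in the 4 libraries, in CPM of miRNA counts on a log axis, with exact 95% intervals for counting error as bars and a triangle at the limit of 3 counts where the count is 0. For 5 of the hairpins the cell libraries lie at or below 2.84 CPM and the vesicle libraries at or above 79.7 CPM, while Mir122 goes from 9.79 and 13.1 CPM in cells to 35.9 and 87.9 CPM in vesicles.

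Together the 6 hairpins took 170 and 207 counts in cells, or 12.6 and 18.4 CPM, and 2766 and 2537 counts in vesicles, or 795 and 1368 CPM. They remained a small part of vesicle miRNA, 0.0795% under shNS and 0.137% under shDis3l2. Mir122 made up 77.6% and 71.5% of their sum in cells but 4.52% and 6.42% in vesicles, where Mir150 held 44.6% and 57.1%.

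In the libraries labelled shNS, Mir144 was 337-fold higher in vesicles than in cells (95% interval 157 to 1144), with a pseudocount of 0.5 counts. Mir451a was 324-fold higher (141 to 1344) and Mir150 273-fold (175 to 484). Mir3107 was 166-fold higher (81.5 to 494) and Mir143 165-fold (81.2 to 492). Mir122 was 3.67-fold higher (2.85 to 4.72). The intervals of the first 5 overlap one another, so their order is not resolved, and that of Mir122 lies below all of them.

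In the libraries labelled shDis3l2, Mir144 had 0 counts in cells and was 539-fold higher in vesicles, taking 3 counts in the cell library as the limit. The lower bound of its exact interval was 435-fold. Mir143 was 292-fold higher (136 to 997), Mir451a 274-fold (107 to 1559) and Mir150 271-fold (194 to 404). Mir3107 was 74.4-fold higher (47.7 to 129), and its interval lay below that of Mir150. Mir122 was 6.69-fold higher (5.33 to 8.42).

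Under shNS, 210 hairpins reached 100 counts over both compartments, and 33.8% of these were at least 2-fold higher in vesicles with an interval that excludes 1, while 6.67% were lower by that measure. Under shDis3l2 it was 37.4% of 206 higher and 9.22% lower. The 6 hairpins are among these by choice, and 5 of them passed the minimum of 100 counts through their vesicle counts, so nothing is read from their number. Mir144, Mir451a, Mir150, Mir3107 and Mir143 took ranks 7, 8, 9, 11 and 12 by ratio with the label shNS. Mir122 took rank 43. With the label shDis3l2, Mir144, Mir143, Mir451a and Mir150 took ranks 5, 7, 8 and 9, Mir3107 rank 18 and Mir122 rank 41.

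**Figure D2:**
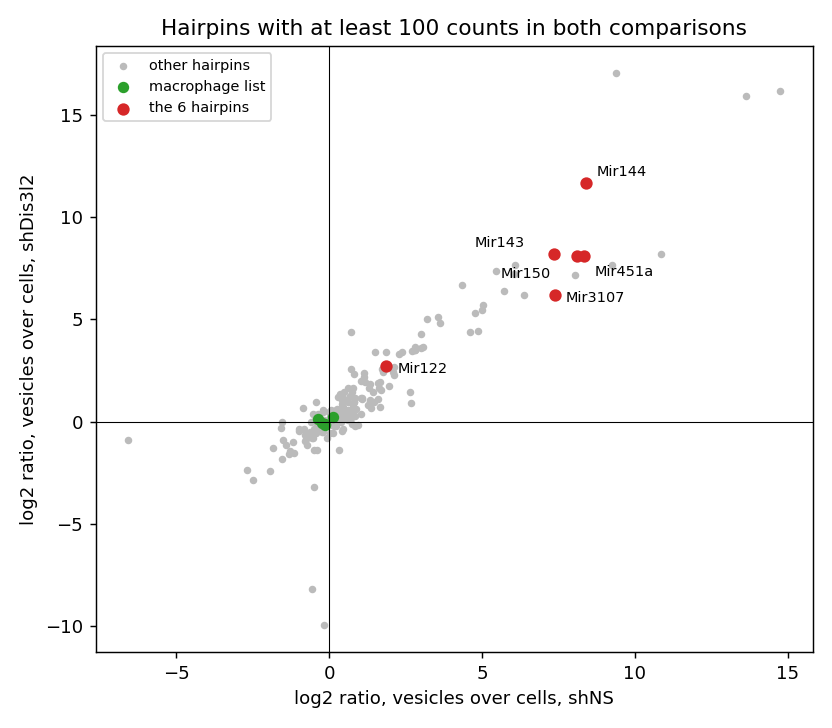
Each point is 1 of the 200 hairpins with at least 100 counts in both comparisons, placed by its log2 ratio of vesicles over cells with the label shNS (x axis) and the label shDis3l2 (y axis); hairpins with a count of 0 are drawn at the value the pseudocount gives. The 6 hairpins (red) lie at or above 1.88 and 2.74 on these axes, while those of the macrophage list (green) lie near 0 on this scale of miRNA counts.

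The scale bears on these ratios, because miRNAs took a smaller share of the counts in vesicles. Scaled to all counts, Mir144 with the label shNS was 94.2-fold higher in vesicles, Mir451a 90.8-fold, Mir150 76.5-fold, Mir3107 46.5-fold and Mir143 46.3-fold. With the label shDis3l2, Mir144 was 92.7-fold higher on that scale when cells were set at the detection limit. The lower bound of its exact interval was 74.9-fold. With that label the folds were 50.3 for Mir143, 47.1 for Mir451a, 46.6 for Mir150 and 12.8 for Mir3107. Mir122 was then at 1.03-fold for shNS (0.798 to 1.32) and at 1.15-fold for shDis3l2 (0.916 to 1.45), intervals that include 1. The interval of Mir122 thus excluded 1 as a share of miRNA and included it as a share of all RNA counted. On the scale of all counts 13.8% and 16.0% of hairpins were at least 2-fold higher in vesicles, and 135 of 210 and 145 of 206 were lower.

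The labels could be compared within vesicles, where all 6 hairpins had enough counts. As a share of miRNA, Mir122 was 2.44-fold higher with the label shDis3l2 than with shNS (1.93 to 3.11), Mir150 2.20-fold (2.04 to 2.38), Mir143 1.79-fold (1.50 to 2.12) and Mir3107 1.61-fold (1.34 to 1.92). Mir144 was at 1.05-fold (0.897 to 1.22), and Mir451a was 1.27-fold lower, with a log2 ratio of -0.35 (-0.63 to -0.08). Both red cell hairpins of chromosome 11 thus stood below the other 4. Mir150 and Mir122 were past 2-fold, as were 17.4% of the 195 hairpins tested, and 6.15% of them were 2-fold lower. That balance of 34 higher and 12 lower hairpins turned to 7 and 50 when all counts set the scale.

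Scaled to all counts the same ratios had log2 values of 0.43 for Mir122 (0.08 to 0.78) and 0.28 for Mir150 (0.17 to 0.39). They were -0.02 for Mir143 and -0.18 for Mir3107, with intervals that include 0, and -0.79 for Mir144 and -1.21 for Mir451a. A change of scale shifts all 6 by the same amount. The sign of Mir144, Mir143 and Mir3107 changes with it, and for each of them the interval includes no difference on one of the scales. In terms of their own sum, Mir144 went from 17.2% with the label shNS to 10.5% with shDis3l2 and Mir451a from 13.6% to 6.19%, shares that no scaling can move.

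**Figure D3:**
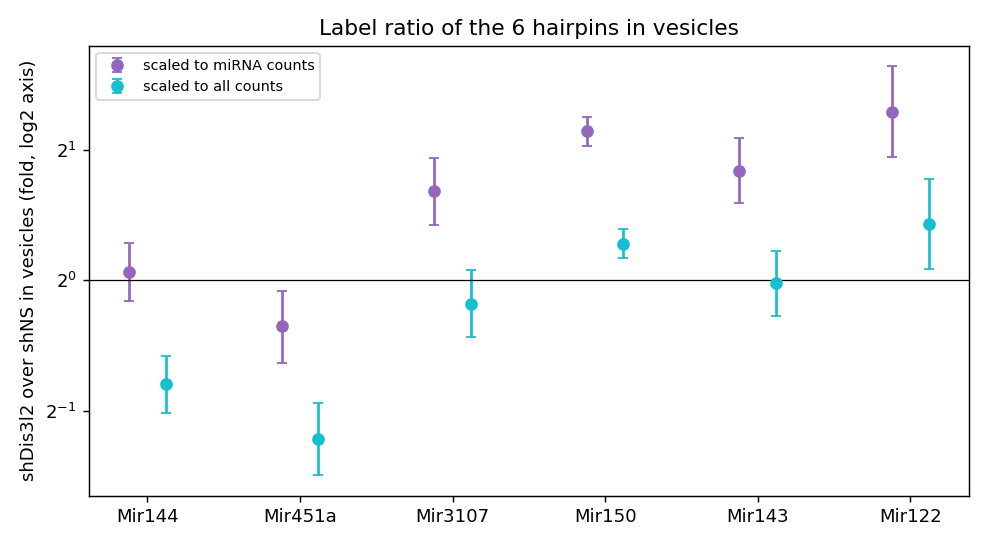
Ratio of the vesicle library labelled shDis3l2 over that labelled shNS for each hairpin (log2 axis), scaled to miRNA counts (purple) or to all counts (cyan), with 95% intervals for counting error. The scales differ by 1 constant for all 6. Mir144 and Mir451a are the lowest, at -0.79 and -1.21 when scaled to all counts, and Mir122 and Mir150 the highest, at 0.43 and 0.28.

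In cells only Mir122 reached 100 counts over both labels. It was 1.34-fold higher with the label shDis3l2 (1.05 to 1.71), short of 2-fold, where 7.28% of 206 hairpins were 2-fold higher and 9.22% lower. Scaled to all counts Mir122 was at 1.20-fold (0.944 to 1.53), an interval that includes 1. As a share of miRNA, Mir150, from 17 and 32 counts, was 2.22-fold higher (1.21 to 4.32), close to its value in vesicles. Scaled to all counts Mir150 was 1.99-fold higher in cells (1.09 to 3.87) and 1.21-fold in vesicles (1.12 to 1.31). Mir3107, from 6 and 19 counts, was 3.59-fold higher in cells per miRNA count (1.45 to 11.6) and 3.22-fold per all counts (1.30 to 10.4). The other 3 had intervals that include 1.

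An additive quasi-likelihood fit (edgeR) of compartment and label over the 4 libraries tested the label alone, a contrast that the choice of hairpins did not use. Cells and vesicles stood in for replicates, with 1 residual degree of freedom. Vesicles came from cells of the same label, so these are not independent, and p does not measure variation between replicate cultures. The fit called 10 of 255 hairpins higher with the label shDis3l2 (3.92%) and 13 lower (5.1%) at an adjusted p under 0.05. Of the 6 hairpins 0 were called, and 1 had an unadjusted p under 0.05. That was Mir150, with a log2 ratio of 1.11 and a p of 0.0187 (adjusted p = 0.165 with edgeR), higher in both compartments. DESeq2 in the same model called 12 of 255 hairpins higher with the label shDis3l2 and 11 lower. Mir150 was among those higher (adjusted p = 0.0397 with DESeq2), and no other of the 6 was called. The adjusted p of Mir150 ranged from 0.0397 to 0.472 over the 4 settings run with edgeR or DESeq2.

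The vesicle-to-cell ratio of Mir122 differed between the labels by 0.87 on the log2 scale, higher with shDis3l2 (0.39 to 1.34). On the scale of all counts that difference was 0.16 with an interval that includes 0 (-0.31 to 0.64). Mir3107 did the opposite: its ratio was lower with shDis3l2 by -1.16 per miRNA count (-2.46 to 0.15) and by -1.86 on the scale of all counts, where the interval excludes 0 (-3.17 to -0.56). For Mir144, Mir451a, Mir150 and Mir143 the interval included 0 on both scales. The difference of Mir150 was -0.01 per miRNA count (-0.86 to 0.83) and -0.71 per all counts (-1.56 to 0.13).

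The hairpins whose pattern over the 4 libraries was most like that of the 6 were found by the distance between their centred log2 levels, among 255 hairpins. Nearest to Mir144 was Mir451a (distance 0.996), followed by Mir143 (1.20) and Mir8114 (1.27). Mir8114, with 0 and 3 counts in cells and 237 and 168 in vesicles, was nearest to Mir451a (0.719) and Mir150 (0.949). Mir411, with 0 counts in both cell libraries and 104 and 71 in vesicles, was the third for Mir451a (0.978).

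Mir6981 was nearest to Mir3107 (0.622), which also had Mir365-2 (0.666) and Mir127 (0.772) close to it. Mir127 had 1 and 2 counts in cells and 97 and 78 in vesicles. For Mir143 it was Gm47299 (0.275), and for Mir122 Mir704 (0.292), Gm25732 (0.299) and the epithelial Mir141 (0.391). Mir141 had 73 and 117 counts in cells and 82 and 93 in vesicles, so like Mir122 it was held by cells as well. Mir411 and Mir127 belong to the imprinted cluster on chromosome 12 that is described next.

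Lists of miRNAs for other tissues show how far the pattern reached beyond the 6. The hairpins of the imprinted Dlk1-Dio3 region, which is active in fetal and placental tissue and in neurons, lay between positions 109563692 and 109743795 of chromosome 12. Of its 32 listed hairpins, 20 had a count. Their sum was 12 and 14 counts in cells and 520 and 407 in vesicles, or 0.890 and 1.24 CPM against 150 and 219 CPM. That is 161-fold higher under shNS (95.3 to 327) and 171-fold under shDis3l2 (104 to 326), and 45.2-fold and 29.4-fold on the scale of all counts.

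Within the cluster the counts were spread over many hairpins. Mir379 had 1 and 0 counts in cells and 64 and 49 in vesicles. Mir409, from the far end of the cluster, had 2 and 0 in cells and 48 and 76 in vesicles. Mir411 was 134-fold higher in vesicles with the label shNS and 144-fold with shDis3l2, from the limit of 3 counts in cells. The lower bounds of its exact intervals were 107-fold and 114-fold. With a minimum of 10 counts, all 12 measured hairpins of the list under shNS and all 10 under shDis3l2 were at least 2-fold higher, where 39.3% and 47.7% of all hairpins were. These too passed the minimum only through their vesicle counts.

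Some of the mature strands of this cluster are shown, with seeds in capitals, because Mir379 and Mir411 are related copies.
miR-379-3p: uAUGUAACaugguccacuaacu
miR-411-3p: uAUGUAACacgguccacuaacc
miR-127-3p: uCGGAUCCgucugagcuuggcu
miR-409-3p: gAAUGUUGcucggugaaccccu
Among all mature strands of the RefSeq table, the seed of miR-379-3p was found in 1 other hairpin, Mir411. The 4 hairpins lie on the plus strand of chromosome 12.

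**Figure D4:**
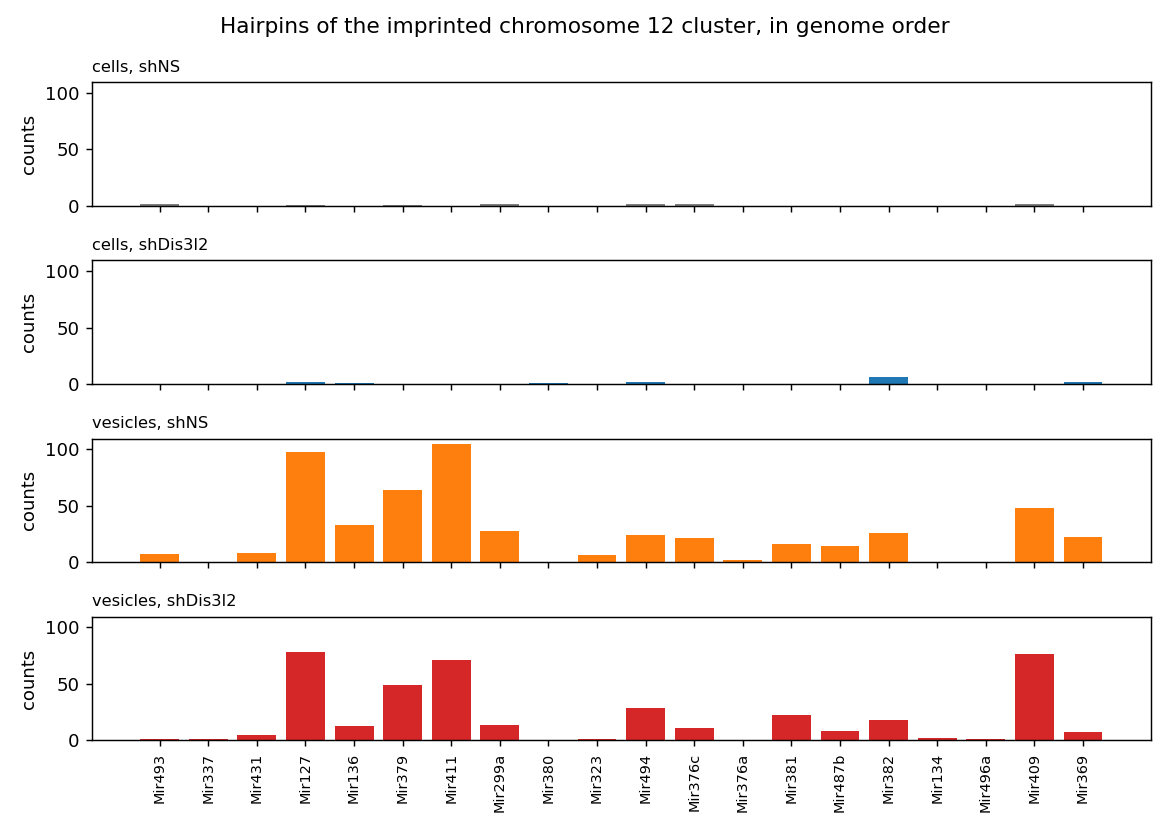
Counts of the 20 hairpins of the imprinted chromosome 12 cluster that had any, in genome order, 1 panel per library and the same axis in each. The cell libraries hold 12 and 14 counts in all, and the vesicle libraries 520 and 407, with Mir127, Mir379, Mir411 and Mir409 the tallest bars in both.

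The trait of being near 0 in cells and counted in vesicles was not limited to hairpins of other tissues. The following were named after their values were seen, as they were among the highest ratios of all. Mir92-1, of the Mir17 cluster that many dividing cells transcribe, had 1 and 0 counts in cells against 4972 and 5085 in vesicles. Its host RNA Mir17hg, which holds the hairpin in an exon, had 435924 and 433675 counts in cells against 152465 and 63117 in vesicles. With host counts added to each hairpin, Mir92-1 was at 1.39-fold with the label shNS and 0.949-fold with shDis3l2. Its neighbour Mir17 was counted in 1 library, vesicles labelled shDis3l2, with 754 counts.

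Mir8108, in an exon of Tacc1, had 0 counts in both cell libraries against 3540 and 6031 in vesicles. The Tacc1 transcripts that hold it had 143 and 116 counts in cells and 1008 and 1606 in vesicles, so reads can be divided between them. Gm47301 had 88 and 0 against 15351 and 11049. It lies in an exon of the 5S rRNA gene n-R5s193, which had 0 counts, so its origin as a miRNA is doubtful. Among the 6, only Mir122 lies in an exon of a host RNA on its own strand, AC157910.3, which had 37 and 71 counts in cells and 17 and 17 in vesicles.

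Lists that mix tissue markers with miRNAs that macrophages also make did not move as one. The counts below are read against the 33.8% and 37.4% of all hairpins that were at least 2-fold higher, and members chosen for this ratio add nothing to them. Of the 12 symbols of the red cell and plasma list, 9 were in the table and 6 were measured. With each label 3 of these 6 were at least 2-fold higher in vesicles, Mir144, Mir451a and Mir3107, all chosen on this ratio, and 0 of the other 3 were. Mir16-1, which is abundant in red cells and in these macrophages, was at 1.08-fold with the label shNS and 0.905-fold with shDis3l2, and Mir93 at 1.16-fold and 0.876-fold. The median log2 ratio of the list, 3.79 and 3.23 against 0.44 and 0.50 for all hairpins, falls in the gap between those hairpins and the rest of the list. With a minimum of 10 counts it was 1.20 and 0.25, against 0.77 and 1.09 for all hairpins. The listed Mir92a-1 stands in the table as Mir92-1. With it included, 4 of 7 were higher with each label and the median was 7.38 and 6.22. When host transcripts were added as well, 3 of 8 were higher with each label and the median was 0.39 and 0.08.

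In the liver list 3 of 5 were higher with each label, Mir122 among them by choice, and 2 of 5 when all counts set the scale. Mir148a, which hepatocytes hold in quantity, had 25 and 14 counts in cells and 288 and 399 in vesicles (43.9-fold, 29.6 to 70.2, and 168-fold, 102 to 320). Mir194-2 had 25 and 38 counts in cells and 209 and 275 in vesicles, 31.8-fold and 43.5-fold higher. Mir192, which is 115 nt from Mir194-2 and transcribed with it, was at 0.755-fold and 0.893-fold, with 5196 and 5300 counts in cells and 1012 and 778 in vesicles. Mir194-1, which gives the same miR-194-5p from chromosome 1, was at 0.932-fold and 0.903-fold, so reads of that strand can be divided between both copies.

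In the mesenchyme and smooth muscle list 2 of 3 measured hairpins were higher with each label, Mir143, which was chosen for it, and Mir10b. Mir10b, a miRNA of the Hoxd gene cluster, had 17 and 14 counts in cells and 147 and 125 in vesicles (32.7-fold, 20.2 to 59.1, and 52.6-fold, 31.2 to 102). Mir199a-1 was at 1.13-fold and 1.24-fold. In the lymphocyte list of 6, 2 were at least 2-fold higher with each label, a share close to that of all hairpins. Mir150, chosen on this ratio, was one of them under both. The other was Mir181b-1 under shNS (3.20-fold, and 1.63-fold under shDis3l2) and Mir342 under shDis3l2 (2.72-fold, and 1.70-fold under shNS), and Mir181b-2 was lower, at 0.177-fold and 0.139-fold.

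A strand each of Mir148a and Mir10b with a seed shared by other hairpins is given because reads of relatives may be divided with them.
miR-148a-3p: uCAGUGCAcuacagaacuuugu
miR-10b-5p: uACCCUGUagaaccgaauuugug
The seed of miR-148a-3p recurs in Mir148b and Mir152, that of miR-148a-5p in Mir148b, and that of miR-10b-5p in Mir10a. Mir148a lies on the minus strand of chromosome 6 and Mir10b on the plus strand of chromosome 2.

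Of the other tissue lists, Mir205, a miRNA of squamous epithelium, had 0 and 3 counts in cells and 46 and 56 in vesicles. With the label shNS it was 59.4-fold higher from the limit of 3 counts in cells. The lower bound of the exact interval was 46.4-fold. With shDis3l2, Mir205 was 98.1-fold higher (36.9 to 567). The epithelial and endocrine list as a sum was 2.56-fold and 1.86-fold higher per miRNA count, but at 0.717-fold and 0.320-fold when scaled to all counts. The sum of the striated muscle list was at 1.24-fold and 2.56-fold, and at 0.348-fold and 0.440-fold per all counts, from 188 and 129 counts in cells against 60 and 54 in vesicles. The neuronal list was at 0.894-fold and 1.08-fold, and at 0.250-fold and 0.185-fold per all counts. The endothelial list was 6.26-fold and 1.87-fold higher, carried by Mir126a with 2979 and 13084 counts in cells and 4920 and 4051 in vesicles, and scaled to all counts it was at 1.75-fold with the label shNS and 0.322-fold with shDis3l2.

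**Figure D5:**
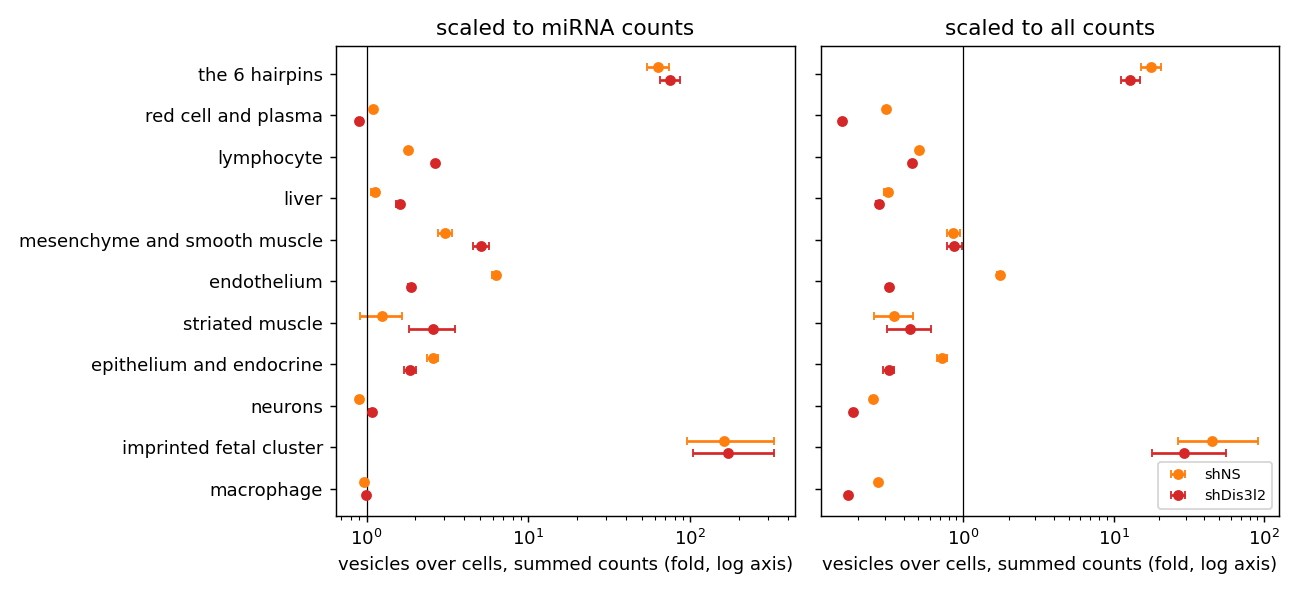
Ratio of summed counts in vesicles over cells for the 6 hairpins and each miRNA list, with the label shNS (orange) and shDis3l2 (red), scaled to miRNA counts (left) or to all counts (right), log axes, with 95% intervals for counting error. The imprinted cluster (161-fold and 171-fold on the left) and the 6 hairpins (62.9-fold and 74.3-fold) stand to the right of the other lists, and the macrophage list lies at 0.960-fold and 0.992-fold on the left and at 0.269-fold and 0.171-fold on the right.

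The miRNAs that mark macrophages did not share this pattern as shares of miRNA. Mir142, which is specific to blood cells, was at 0.919-fold and 0.939-fold in vesicles over cells, Mir155 at 0.917-fold and 0.902-fold, and Mir21a at 1.10-fold and 1.19-fold. Of the 5 measured hairpins of the macrophage list 0 were 2-fold higher and 0 lower, and the median log2 ratio was -0.12 and -0.08. Scaled to all counts, all 5 were at least 2-fold lower in vesicles with each label, and the median was -1.96 and -2.62 against -1.40 and -2.04 for all hairpins. Mir223 and Mir22 had 0 counts in all libraries as hairpins. Counts were also set against those of the macrophage list, which is itself a scale. That list had 182147 and 134988 CPM in cells and 174824 and 133863 CPM in vesicles, so it was lower with the label shDis3l2. Per 1000000 of its counts, the 6 hairpins had 69.2 and 136 counts in cells against 4550 and 10221 in vesicles. The imprinted cluster had 4.89 and 9.20 in cells and 855 and 1640 in vesicles by that measure.

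Fragments of mRNAs gave a separate view of the cell types, here scaled to all counts. Of the macrophage mRNAs, 7 of 7 measured with the label shNS and 9 of 9 with shDis3l2 were at least 2-fold higher in vesicles, where 76.4% and 78.6% of all genes other than miRNAs were. Their median log2 ratio was 2.75 and 2.36, against 2.21 and 2.45 for all such genes. Lyz2, the macrophage lysozyme, had 223 and 122 counts in cells and 2161 and 1364 in vesicles, and Csf1r, the receptor for macrophage growth factor, 106 and 184 in cells and 818 and 1102 in vesicles.

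Markers of the cells that the 6 miRNAs are typical of were sparse. The 11 erythroid mRNAs summed to 57 and 44 counts in cells and 129 and 242 in vesicles. Most of the latter was Hbb-bs, an adult beta globin, with 4 and 5 counts in cells and 67 and 171 in vesicles (16.3-fold, 6.78 to 68.7, and 32.6-fold, 15.0 to 112), whereas the alpha globin gene Hba-a1 had 0 in every library. The erythroid sum had a log2 ratio of 1.29 and 2.51, beside a median of 2.21 and 2.45 over all genes other than miRNAs. The sums of 9 hepatocyte mRNAs were 16 and 15 counts in cells and 34 and 35 in vesicles, and those of 5 platelet mRNAs 14 and 10 against 24 and 24. The 11 lymphocyte mRNAs summed to 75 and 100 counts in cells and 137 and 209 in vesicles, with log2 ratios of 0.98 and 1.12, below that median. The antibody heavy chain Ighm made up most of the vesicle counts, with 4 and 40 counts in cells and 74 and 123 in vesicles, while Cd8a had 3 and 2 in cells and 0 in both vesicle libraries and Cd3d 5 and 6 in cells against 2 and 0 in vesicles. The 10 mesenchymal mRNAs summed to 105 and 96 counts in cells against 140 and 86 in vesicles.

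These levels bear on culture serum as follows. All reads were assigned to mouse sequences, the medium held bovine serum, and mature miRNAs of these families are conserved among mammals, so the species a read came from was not resolved here. The 4 libraries include none of medium without cells. The hairpins that were higher in vesicles and nearly absent from cells included miRNAs of red cells, lymphocytes, smooth muscle and the imprinted fetal cluster, and also, by its own row, Mir8108. Mir92-1 was among them by its own row only. Its reads can be divided with its host RNA, which was abundant in cells. With host counts added it was at 1.39-fold with the label shNS and 0.949-fold with shDis3l2. The hairpins of macrophages were at similar shares of miRNA in both compartments, and lower in vesicles as shares of all counts. The part of culture serum in these differences was not tested.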

How the data were processed

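Small RNA libraries were made from total RNA by the QIAseq miRNA protocol and sequenced to 50 nt, per the labels' protocols. The table deposited by the authors holds estimated counts for each transcript, made with cutadapt, Salmon and Novoalign on GRCm38 and mm10, per the submitters' processing notes, which give no versions. The sources used here do not say whether molecular tags were collapsed. Counts were rounded to whole numbers, and only 6.56% of the deposited counts above 0 were whole within 0.001. Features were named from GENCODE M21, and for every gene that is not a miRNA its transcripts were added up. Mature and hairpin sequences came from RefSeq (GRCm38.p6), which gave mature strands for 3 of the 6 hairpins that could be printed.

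Levels were scaled to the miRNA total (CPM). Ratios used a pseudocount of 0.5 counts and a minimum of 100 counts over the 2 libraries, with exact conditional (Clopper-Pearson) 95% intervals. Levels have exact Poisson intervals, and the difference between labels an interval from the counting variances. edgeR 4.0.16 and DESeq2 1.42.0 fitted the label effect, with Benjamini-Hochberg adjustment over all hairpins, and Python 3.11.15 the rest. The listing and the fits were tested on simulated counts. Named hairpins are the 6, members of the tissue lists and the 3 hairpins nearest in pattern to each of the 6. The hairpins and lists were chosen with earlier results of these data known. Alternatives were edgeR TMM factors, DESeq2 size factors, scaling to all features or to the miRNA total less the 5 most abundant hairpins, count minimums of 10, 1000 and none, a pseudocount of 5, thinning, summed copies, added host transcripts and symbols starting with Mir. Adding Mir486 to Mir3107, and taking Mir92-1 as the listed Mir92a-1 (its RefSeq synonym), were chosen after seeing the data.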

Additional observations from a re-analysis of the deposited data

How the results depend on the processing

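For Mir144, Mir451a, Mir3107, Mir150 and Mir143 the vesicle libraries stayed at least 2-fold above the cell libraries with both labels under each alternative that kept the hairpin, with log2 ratios from 3.68 (Mir3107, shDis3l2, all features as the scale) to 11.7 (Mir144, shDis3l2). The last value comes from a count of 0 in cells, so the pseudocount sets it, and its lowest over the alternatives was 8.36. Mir122 was within 2-fold when all features set the scale (0.04 and 0.20) and past it under the other alternatives, including with its host RNA added (1.70 and 2.31). In vesicles, the label ratio of Mir150 fell below 2-fold with TMM factors (0.90) and all features (0.28), that of Mir122 with all features (0.43), and Mir451a then passed 2-fold lower (-1.21).

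The counts over all hairpins depended on the scale and the minimum. With the label shNS, 71 hairpins were at least 2-fold higher in vesicles and 14 lower. The higher count became 29 with all features as the scale, 129 with host transcripts added, and 170, 35 and 216 with minimums of 10, 1000 and none. The lower count became 29 (TMM factors), 37 (DESeq2 size factors), 135 (all features as the scale), and 26 with a minimum of 10 or none. With the label shDis3l2 the main counts were 77 and 19. The higher count became 33 with all features, 135 with host transcripts, and 195, 36 and 304 with the same minimums, and the lower count 63 (TMM factors), 48 (DESeq2 size factors) and 145 (all features). The median of all hairpins was 0.44 with shNS and 0.50 with shDis3l2, and with all features -1.40 and -2.04. Hairpins 2-fold apart between labels numbered 34 in cells (79 with a minimum of 10, 95 with none) and 46 in vesicles (90 with host transcripts, and 110, 20 and 132 with the 3 minimums). In vesicles the split of 34 higher and 12 lower became 23 and 18 with TMM factors and 7 and 50 with all features, and in cells that of 15 and 19 became 22 and 10, and 10 and 22. The label fit called 23 hairpins, and 12 without TMM factors. Fewer or more hairpins tested changes these counts by construction; the cause of the other changes was not tested.

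No paired analysis was possible because the labels give no replicate numbers to serve as a block; the additive fit compares the labels within each compartment instead. No library was left out, as each group has 1. At these depths, levels in cells of 6 counts or fewer are known only within several-fold.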
